A study of Mus musculus with 8 samples.

Results

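Goblet cells are the secretory cells of the intestinal epithelium that make mucus. Described here are 10 genes of the murine goblet cell mucus program, Muc2, Fcgbp, Clca1, Zg16, Tff3, Spink4, Agr2, Ern2, Creb3l1 and Rep15, chosen by name from the 25239 genes of a bulk RNA-seq count table, where all 10 were found. The table holds intestinal epithelial cells (IECs) of the proximal small intestine from 4 CD1d-KO mice, which carry a deletion of Cd1d1 and Cd1d2 and lack natural killer T (NKT) cells, and from 4 wild-type (WT) mice labelled C57BL/6Jax. Neither genotype received a treatment, and the study used mice of both sexes, 7 to 10 weeks old. Of the samples here, only CD1d-KO 1 and CD1d-KO 2 carried Y-linked counts. IECs were sorted as live EpCAM+ CD45- CD31- Ter119- cells from a crypt-enriched preparation. Each sample is thus the sorted, crypt-enriched epithelium of 1 mouse, and neither purified goblet cells nor the whole epithelium with its villi. Because CD1d was absent from every cell of the CD1d-KO mice, the loss of NKT cells and the loss of CD1d in the epithelium cannot be told apart in this comparison. According to the study, its mice were not littermates, and their gut microbiota may have been affected by this. Such a difference cannot be told apart from genotype here either. The question was whether goblet cell transcripts differ in IECs when CD1d and NKT cells are missing.

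Mucus of the small intestine is built on the gel-forming mucin MUC2, which is folded and linked into polymers in the endoplasmic reticulum, heavily O-glycosylated in the Golgi and stored in granules before release. Goblet cells arise in the crypt from secretory progenitors that express the transcription factor ATOH1, and SPDEF acts downstream of it in their maturation. Of the genes described, Muc2, Fcgbp, Clca1 and Zg16 encode proteins of the mucus gel. Tff3 and Spink4 encode small secreted peptides, Agr2, Ern2 and Creb3l1 encode proteins of the secretory pathway, and Rep15 encodes a RAB15-binding protein used as a goblet cell marker.

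The start regions of 3 of the 10 genes were in the RefSeq promoter table used here (GRCm38.p6), which gives 250 bases before and 50 bases after each start. They are shown because ATOH1 and related factors bind E-boxes, and the capitals mark the E-box CAGCTG, which reads the same on both strands. The windows are chr7:141690090-141690389 for Muc2, chr7:28070986-28071285 for Fcgbp and chr12:35992675-35992974 for Agr2, all on the plus strand and written 5′ to 3′.
Muc2: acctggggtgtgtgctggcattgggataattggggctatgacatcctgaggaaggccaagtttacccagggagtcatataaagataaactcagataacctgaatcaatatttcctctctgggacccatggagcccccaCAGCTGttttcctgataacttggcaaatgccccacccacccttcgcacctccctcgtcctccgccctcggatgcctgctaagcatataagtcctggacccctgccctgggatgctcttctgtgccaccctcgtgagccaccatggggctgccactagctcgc
Fcgbp: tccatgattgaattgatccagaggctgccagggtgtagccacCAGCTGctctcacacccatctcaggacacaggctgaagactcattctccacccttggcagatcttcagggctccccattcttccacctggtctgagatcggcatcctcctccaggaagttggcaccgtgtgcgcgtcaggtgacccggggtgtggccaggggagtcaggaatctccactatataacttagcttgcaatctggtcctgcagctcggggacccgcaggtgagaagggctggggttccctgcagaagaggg
Agr2: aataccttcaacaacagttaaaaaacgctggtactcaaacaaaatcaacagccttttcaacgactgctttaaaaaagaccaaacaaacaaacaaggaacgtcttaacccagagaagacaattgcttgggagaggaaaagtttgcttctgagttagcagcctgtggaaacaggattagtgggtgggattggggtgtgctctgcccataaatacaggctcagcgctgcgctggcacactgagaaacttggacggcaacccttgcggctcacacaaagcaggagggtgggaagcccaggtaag
The E-box CAGCTG was present in 2 of the 3 windows, at position -112 relative to the start of Muc2 and at -208 relative to that of Fcgbp. Of all 32851 windows, 16.3% held it. The related E-box CAGATG, held by 17.2% of all windows on either strand, was in none of the 3, and neither was ACGTG, a core bound by factors of the endoplasmic reticulum stress response and held by 19.6% of all windows. The letters TATAAA, held by 13.6% of all windows, occurred in the Muc2 window only, at -174. These matches describe letters and not bound sites, and the motifs were chosen with their matches known.

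The samples held between 23610266 and 31629435 counted read pairs, the lowest in WT 4. Cd1d1, the deleted gene, was at 61.1 to 91.1 normalized counts in WT and at 0 to 7.2 in CD1d-KO samples (adjusted p = 1.09e-18, DESeq2), so the labels held. Normalized counts are read pairs per gene divided by the size factor of the sample. The 6 epithelial marker genes summed to between 284300 and 318900 normalized counts in all samples, against at most 34.36 for 6 stromal and blood genes and 901.2 to 2514 for 12 leukocyte genes. Ddx3y, a Y-linked gene, was at 1721.9 and 2053.5 in CD1d-KO 1 and CD1d-KO 2 and at 1 or less in the other 6. Samples with at least 100 normalized counts of Ddx3y are called samples with Y-linked counts below, and both were CD1d-KO. No WT sample was among them, so sex was not balanced between the genotypes. DESeq2 tested 15446 genes and called 622 at an adjusted p under 0.05, which is 4.03% of the tested genes. Of these 367 were lower in CD1d-KO, 2.38% of the tested genes, and 255 were higher.

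None of the 10 goblet cell genes was called, against the 4.03% of all tested genes. All 10 passed the filter on low counts. None of them had an unadjusted p under 0.05 either, which 15.3% of the tested genes had, and edgeR's quasi-likelihood test called none. The log2 fold change (CD1d-KO against WT) ran from -0.28 for Ern2 to 0.24 for Zg16, with a median of -0.10 beside 0.001 for all tested genes. Of the 10 values 9 were below 0, but the same samples were low or high in nearly all of these genes, so the 10 are not separate pieces of evidence. The direction rested on single mice, since without CD1d-KO 2 the median was 0.04 and 6 of the 10 were above 0, and without WT 3 it was 0.02 with 5 above 0. Without both samples with Y-linked counts, which leaves 2 CD1d-KO mice, 5 of the 10 were above 0 (median -0.01). The genotypes overlapped for all 10 genes, and 9.61% of the tested genes had genotypes that did not overlap. At such background shares, here and for the p-values above, finding none among 10 genes that vary together is not unusual. A value that misses the threshold does not show equal expression, and the 95% intervals below give the folds these samples could not exclude.

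**Figure D1:**
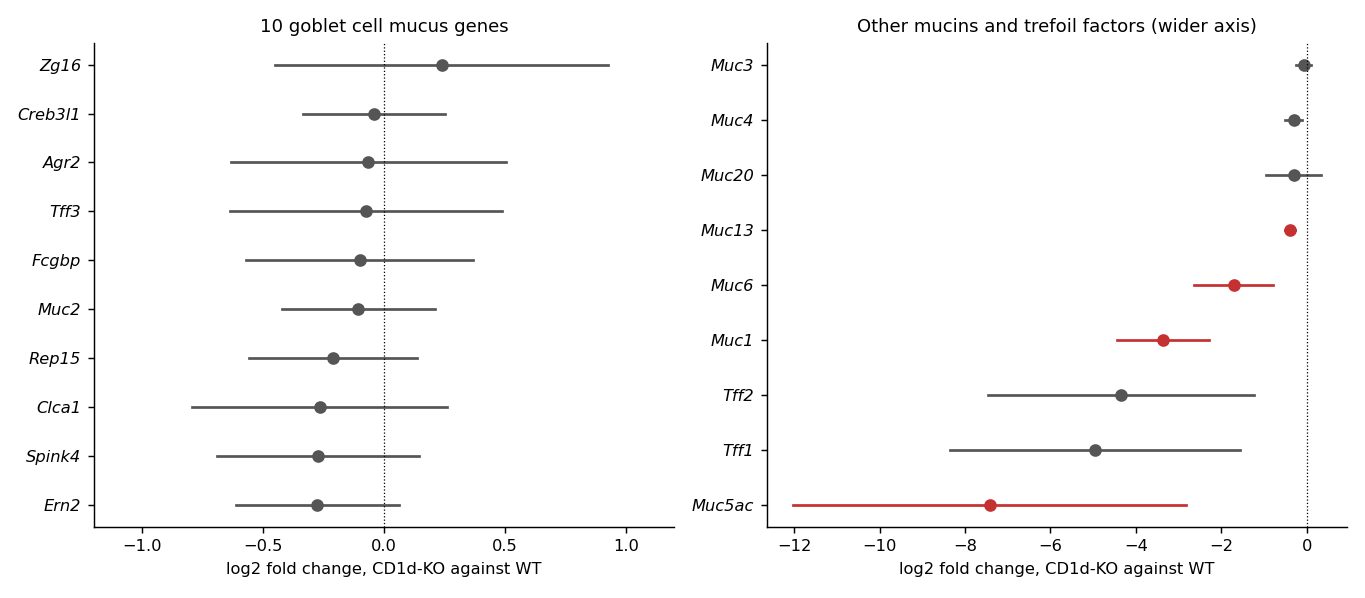
Log2 fold change of CD1d-KO against WT (x axis) with its 95% Wald interval (lines, not adjusted for multiple tests) for the 10 goblet cell genes (left) and for 9 other mucins and trefoil factors (right, wider axis), 4 mice per genotype. Red marks genes called at an adjusted p under 0.05 and grey the others; no goblet cell gene is called and every interval on the left crosses 0.

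Muc2 (chr7:141690340-141754694 in mm10, plus strand, 46 exons in the annotation), the gel-forming mucin, had 38657.5, 40271, 44619 and 24275 normalized counts in WT 1 to 4. In CD1d-KO 1 to 4 it had 38499.7, 26299.6, 36677 and 35754. The lowest and the highest of the 8 samples were both WT, and the CD1d-KO samples lay between them. The difference was -0.11 ± 0.161 (log2 fold change ± SE, n = 4 per genotype, adjusted p = 0.851, DESeq2), or 0.928-fold with a 95% interval of 0.746 to 1.16.

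Fcgbp (chr7:28071236-28120864, plus strand), which encodes a large von Willebrand D domain protein bound to the MUC2 network, was the most counted of the 10. It had 115892, 128330.1, 174388 and 107127 normalized counts in WT 1 to 4 and 141054, 75289, 122843 and 150997 in CD1d-KO 1 to 4. CD1d-KO 2 was below every other sample and WT 3 above, and the remaining 6 samples of both genotypes were interleaved. The fold was 0.932 (95% interval 0.673 to 1.29, adjusted p = 0.923, DESeq2).

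Clca1 (chr3:145004537-145032776, minus strand) encodes a secreted metalloprotease of the mucus, and Zg16 (chr7:127050156-127052675, minus strand) a lectin that binds peptidoglycan of Gram-positive bacteria. Clca1 had 28494, 33291, 44036 and 24689.5 normalized counts in WT 1 to 4 and 32123, 16259, 29322 and 30809 in CD1d-KO 1 to 4. Zg16 had 17038, 24205, 36546 and 15293 in WT and 26449, 15786, 34398 and 33088 in CD1d-KO. For Zg16, WT 1 and WT 4 were low together with CD1d-KO 2, while CD1d-KO 3 and CD1d-KO 4 were close to WT 3. Clca1 was at 0.831-fold (0.577 to 1.2, adjusted p = 0.737) and Zg16, the one gene of the 10 with a higher mean in CD1d-KO, at 1.18-fold (0.732 to 1.9, adjusted p = 0.849, both DESeq2). Zg16 had the widest interval, with coefficients of variation of 41.5% among WT and 31% among CD1d-KO mice.

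The 2 secreted peptides had their extremes in the same samples. Tff3 (chr17:31125306-31129611, minus strand), the intestinal trefoil factor, ranged from 7718 to 13879 normalized counts in WT and from 5985.1 to 11889.7 in CD1d-KO. Spink4 (chr4:40920056-40931395, plus strand), of the Kazal-type protease inhibitor family, ranged from 5515 to 8155 in WT and from 3689.7 to 6875 in CD1d-KO. For both, CD1d-KO 2 was the lowest sample and WT 3 the highest. The folds were 0.949 for Tff3 (0.644 to 1.4, adjusted p = 0.958) and 0.828 for Spink4 (0.619 to 1.11, adjusted p = 0.615, both DESeq2).

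Agr2 (chr12:35992925-36004081, plus strand) encodes a protein disulfide isomerase required for MUC2 production, and it ranged from 11712 to 21333 normalized counts in WT and from 9040.5 to 19132 in CD1d-KO. Its fold was 0.956 (0.645 to 1.42, adjusted p = 0.964, DESeq2). Ern2 (chr7:122169893-122186231, minus strand) encodes IRE1-beta, the stress sensor of the endoplasmic reticulum found in mucus-secreting epithelia. It had 1219, 1382, 1629.7 and 982 normalized counts in WT 1 to 4 and 1314, 796, 932 and 1263.5 in CD1d-KO 1 to 4. Ern2 had the lowest p of the 10 (unadjusted 0.109, adjusted 0.478, DESeq2) and a fold of 0.826 (0.653 to 1.04), and unlike for the other genes CD1d-KO 3 was low beside CD1d-KO 2. Creb3l1 (chr2:91982328-92024170, minus strand), a membrane-bound transcription factor of the secretory pathway, varied least, by 1.63-fold from the lowest to the highest sample, and its fold between genotypes was 0.971 (0.792 to 1.19, adjusted p = 0.953, DESeq2). Rep15 (chr6:147032537-147033518, plus strand, 1 exon) had 429, 472, 699 and 428 normalized counts in WT 1 to 4 and 448, 325, 493 and 488 in CD1d-KO 1 to 4. WT 3 stood apart from the other 3 WT samples, and the fold was 0.864 (0.68 to 1.1, adjusted p = 0.65, DESeq2).

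**Figure D2:**
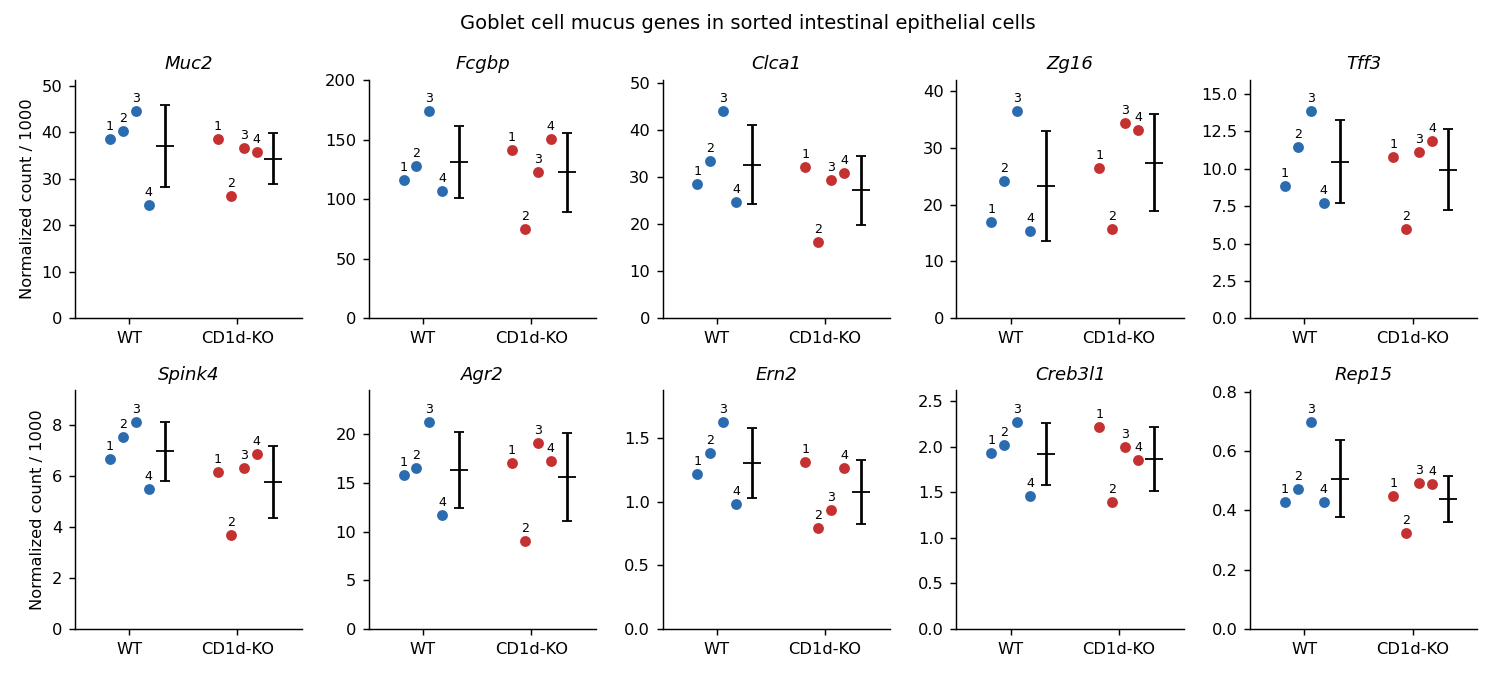
Normalized counts divided by 1000 (y axis, from 0) of the 10 goblet cell genes in each WT (blue) and CD1d-KO (red) mouse, with replicate numbers above the points and the mean ± SD (n = 4) in black. CD1d-KO 2 is the lowest CD1d-KO sample and WT 4 the lowest WT sample in all 10 panels, and WT 3 is the highest of all 8.

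The 10 genes varied together across mice. CD1d-KO 2 was the lowest CD1d-KO sample for 10 of 10 genes, WT 4 the lowest WT sample for 10 of 10 and WT 3 the highest of the 8 for 10 of 10. Together they took 0.541% of all counts in CD1d-KO 2 and 0.69% in WT 4, 0.835% to 0.999% in the next 5 samples and 1.2% in WT 3. A member score, the mean over the 10 genes of log2(normalized count + 1) after centring each gene over the 8 samples, was -0.05, 0.14, 0.48 and -0.33 in WT 1 to 4 and 0.13, -0.63, 0.10 and 0.16 in CD1d-KO 1 to 4. Mice of the same genotype thus differed by more than the genotypes did. In bulk RNA, fewer goblet cells and less of these transcripts per goblet cell cannot be told apart. Across the 8 samples, after subtracting each genotype's mean, Pearson's r between pairs of the 10 genes ranged from 0.716 to 0.982 with a median of 0.899 over 45 pairs. This is a description of 8 libraries, and all pairs share these libraries and their size factors.

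A like order of samples appeared in genes that were not among the 10. Atoh1 had 642, 722, 901 and 576 normalized counts in WT 1 to 4 and 712, 497, 811 and 771 in CD1d-KO 1 to 4. Spdef had 857, 964, 1149 and 681 in WT and 783, 551.5, 975 and 907 in CD1d-KO. Both were thus lowest in CD1d-KO 2, lowest among WT in WT 4 and highest in WT 3, and neither differed between genotypes beyond the spread of the mice (log2 fold change -0.03 ± 0.164, adjusted p = 0.976, and -0.18 ± 0.178, adjusted p = 0.719, DESeq2). Their correlation with the member score within genotypes was 0.97 and 0.95 (n = 8 samples). In a list of 20 further goblet cell markers, 19 reached a mean of 100 normalized counts, and 15 of the 19 had an r of at least 0.9 with the member score, against 121 of 10931 genes (1.11%) of that abundance outside the 10. That list holds genes known as goblet cell markers, and its correlation is a description of the same 8 libraries.

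**Figure D3:**
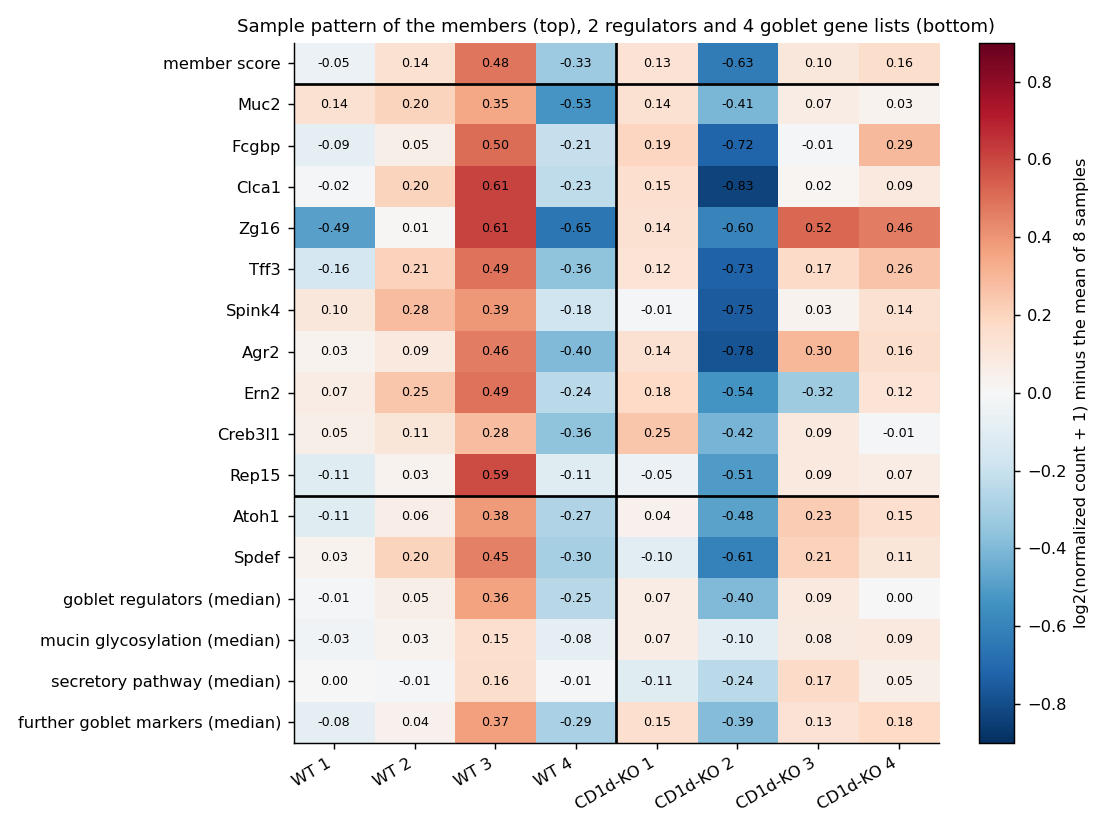
Log2(normalized count + 1) minus the mean of the 8 samples (color and printed value) for the member score and the 10 goblet cell genes (top), and for Atoh1, Spdef and the median gene of 4 lists (bottom), in WT (left) and CD1d-KO (right) samples. WT 3 is above and CD1d-KO 2 below the mean in every row, while the medians of the glycosylation and secretory pathway lists move less, between -0.24 and 0.17.

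Of the 10931 genes compared, those most like the member score over the 8 samples were Rab3d (r = 0.989), Ttc39a (0.985), Ttc39aos1 (0.978), Smim6 (0.976) and Atp2a3 (0.976). Rab3d encodes a small GTPase of secretory granules and Atp2a3 a calcium pump of the endoplasmic reticulum. After subtracting genotype means they were Syt7 (0.997), a calcium sensor of exocytosis, Scnn1a (0.992), Rab3d (0.991), Gcnt3 (0.988), an enzyme of mucin O-glycan branching, and Ttc39aos1 (0.986). The name Ttc39aos1 marks a transcript opposite Ttc39a, and as strand was not used in counting, their reads cannot be told apart where they overlap. The median r of all genes compared was -0.045 over the 8 samples. None of these genes was called between genotypes (adjusted p from 0.705 for Atp2a3 to 0.981 for Gcnt3, DESeq2).

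Markers of other secretory cells shared part of this sample order. The 8 enteroendocrine markers, of which none was called, had a summed level with an r of 0.81 with the member score within genotypes (0.75 over the 8 samples), and the median of their centred levels was -0.47 in CD1d-KO 2, -0.33 in WT 4 and 0.43 in WT 3. The summed Paneth markers also had an r of 0.81 within genotypes, and 0.42 over the 8 samples. Their sum was not highest in WT 3 (38290 normalized counts), which lay below WT 1 (40730) and WT 2 (43400). Part of the order of samples was thus not particular to goblet cell genes.

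Markers of several other cell types also differed between genotypes. The 11 Paneth markers summed to 31370 to 43400 normalized counts in WT and to 37800 to 74520 in CD1d-KO, and 3 of the 11 were called, all higher in CD1d-KO (Lyz1, Defa17 and Defa21). CD1d-KO 2 was the lowest CD1d-KO sample there too. Of the 11 log2 fold changes, 9 were above 0 and 2 below, those of Mmp7 (-0.27) and Mptx1 (-0.21), while Mptx2 was at 0.02. None of Lyz1, Defa17 and Defa21 was called by edgeR (adjusted p = 0.0858, 0.0644 and 0.0663). When 1 sample was left out, Lyz1 was called only without CD1d-KO 2, Defa17 only without CD1d-KO 2 or CD1d-KO 4, and Defa21 only without CD1d-KO 2 or WT 4. Without both samples with Y-linked counts, Lyz1 and Defa17 were called (adjusted p = 5.9e-13 and 2.41e-22, DESeq2) and Defa21 was not (0.192). WT 3, in which the 10 goblet cell genes were highest, also had the highest sum of 9 gastric mucous markers (12550 normalized counts), yet WT 4, the lowest WT sample for the 10, was second (6592). WT 1 and WT 2 held 1793 and 1792, and the CD1d-KO samples held 529.8 to 1131. Most of each CD1d-KO sum was Gkn3 (522 to 904.8), which was not called (log2 fold change -0.08). Among the 9 gastric markers 5 were called, all lower in CD1d-KO, and the defining Muc5ac and Tff1 were at 0 in CD1d-KO 1 to 3. Of the 5, Vsig1 was called in each of the 8 fits without 1 sample, Anxa10 in 6 (not without WT 3), Cldn18 only without CD1d-KO 3 or CD1d-KO 4, and Ctse and Muc5ac only without CD1d-KO 4. Without WT 4, Anxa10 and Cldn18 had no adjusted p. None of the 5 was called without both samples with Y-linked counts (adjusted p from 0.0551 for Anxa10 to 0.241 for Cldn18, DESeq2). When a gastric marker score entered the fit, 9 of the 10 log2 fold changes were above 0 (median 0.23), again with no call. Of 12 leukocyte markers, 5 were called, all lower in CD1d-KO (sums of 901.2 to 1075, and 1116 to 2514 in WT). Itgam was the largest part of each sum (678.4 to 847.6 in CD1d-KO and 843.6 to 1169.3 in WT). Jchain was at 455.5 normalized counts in WT 1, 20.4 to 99.6 in the other WT samples and 1.8 to 16.3 in CD1d-KO. Jchain was called in each of the 8 fits without 1 sample but not by edgeR (0.0572), and Itgam was lost without CD1d-KO 2, WT 1 or WT 2 and with edgeR (0.0773). Cd3g was called only without WT 4 and Cd8a only without CD1d-KO 4, WT 3 or WT 4, with the highest adjusted p for both without WT 1 (0.474 and 0.514). The part of Paneth cells and leukocytes in the values of the goblet cell genes was not tested.

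To see which of the 10 departed from the shared pattern, each gene was set against the mean of the other 9 in the same sample. Zg16 departed most, at -0.49, -0.15, 0.15 and -0.36 (log2 scale, centred) in WT 1 to 4 and at 0.02, 0.03, 0.47 and 0.34 in CD1d-KO 1 to 4. Relative to the other 9 it was 0.43 higher in CD1d-KO, but WT 3 overlapped with the CD1d-KO samples. Clca1 was 0.18 lower relative to the other 9, at 0.03 to 0.15 in WT and -0.22 to 0.03 in CD1d-KO. Its genotypes met at 0.03 and did not overlap before rounding. Spink4 was lower by a like amount, at -0.15 to -0.02 in CD1d-KO and -0.10 to 0.17 in WT. Ern2 was close to the other genes in 7 samples (-0.05 to 0.13) and low in CD1d-KO 3 (-0.46). These differences were picked out of 10 after their values were seen and are given with no test.

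**Figure D4:**
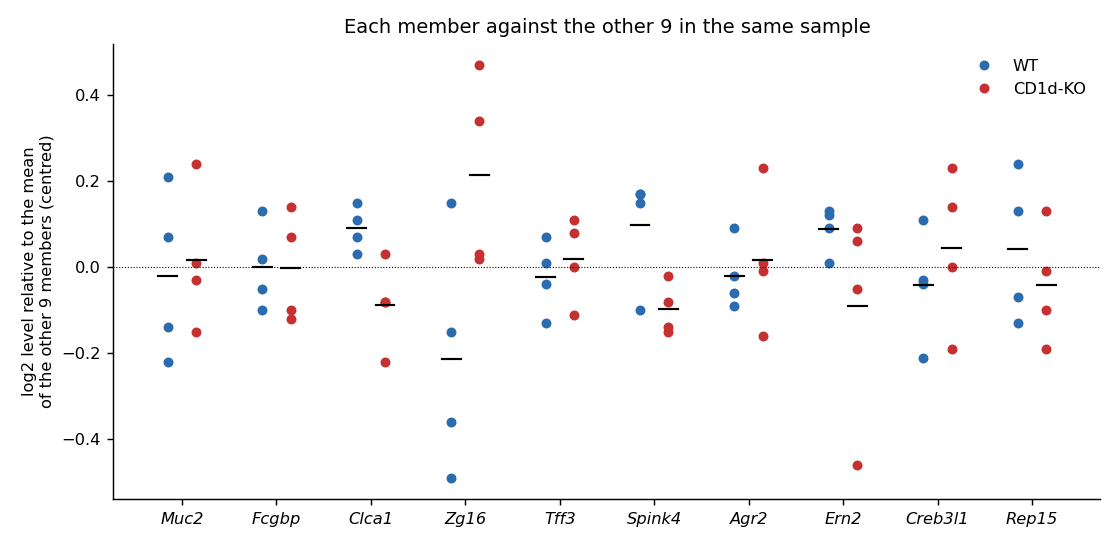
Level of each goblet cell gene relative to the mean of the other 9 in the same sample (y axis, log2 scale, centred to 0 over 8 samples) in WT (blue) and CD1d-KO (red) mice, with the group mean as a black line (n = 4). Zg16 lies highest in CD1d-KO 3 and CD1d-KO 4 (0.47 and 0.34), and Ern2 lies lowest in CD1d-KO 3 (-0.46).

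Counted reads rise with transcript length, so levels of different genes were compared per kilobase of exon and per 1000000 counts. On this scale, as the mean of 8 samples, Zg16 was highest (1290), followed by Tff3 (776), Agr2 (732), Spink4 (565), Fcgbp (557), Clca1 (354) and Muc2 (184). Creb3l1 (29.1), Rep15 (16.7) and Ern2 (13.9) lay well below. Fcgbp, with 7930 bases of exon, was 1st and Muc2, with 6728, was 2nd by normalized count but 5th and 7th per length. Spink4 was above Fcgbp in 4 of 8 samples and Tff3 above Agr2 in 6 of 8, so that the order of these neighbors did not stand beyond the spread of the samples. The other 7 neighboring pairs kept their order in 8 of 8. Other mucins bracketed Muc2 on the same scale, with Muc13, a membrane mucin of enterocytes, at 549, Muc3 at 219, Muc4 at 20.4 and Muc5ac at 1.33.

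**Figure D5:**
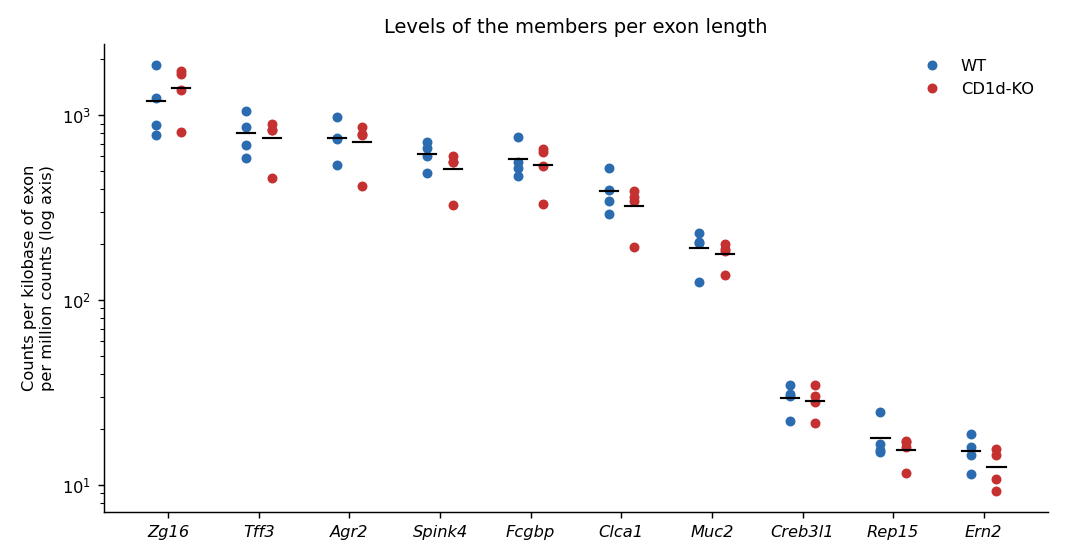
Level per kilobase of exon and per 1000000 counts (y axis, log scale) of the 10 goblet cell genes, ordered by the mean of 8 samples, in WT (blue) and CD1d-KO (red) mice, with group means as black lines (n = 4). The 7 genes from Zg16 to Muc2 have means of 184 to 1290 and the last 3 means of 13.9 to 29.1.

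Lists of related genes were then read against the 10. Among 8 goblet cell regulators (Atoh1, Spdef, Gfi1, Klf4, Foxa1, Foxa2 and Foxa3 among them) none was called, and their log2 fold changes ran from -0.18 to 0.06 (median -0.08). Among 30 genes of the secretory pathway none was called (median -0.04). By test statistic the most extreme were Sec61b, of the translocation channel (-0.15, adjusted p = 0.364), and Manf, an endoplasmic reticulum stress protein (-0.21, adjusted p = 0.396, both DESeq2). Both lists had no gene with an unadjusted p under 0.05.

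Among 21 tested genes of mucin glycosylation, 2 were called, both lower in CD1d-KO. Fut2, which adds the terminal fucose of mucin glycans, had 202, 203, 347 and 163 normalized counts in WT 1 to 4 and 71.5, 51.4, 135 and 143 in CD1d-KO 1 to 4, without overlap (log2 fold change -1.19 ± 0.307, adjusted p = 0.00566, DESeq2). Gcnt1, which makes core 2 branches, was lower by a like amount but overlapped (-1.02 ± 0.318, adjusted p = 0.0398, DESeq2). Neither call held without CD1d-KO 1 (adjusted p = 0.251 and 0.109) or without WT 3 (0.0671 and 0.186), and neither held with edgeR (0.0968 and 0.13). Leaving out WT 1 ended both calls as well (0.173 and 0.118). The Gcnt1 call was further lost when WT 2, CD1d-KO 2 or CD1d-KO 3 was left out. Galnt3, Galnt4, Galnt7, Galnt12 and C1galt1, which start and extend the O-glycans, had log2 fold changes between 0.0031 and 0.0964 and are named for their role, after their values were seen. The list's median was 0.04.

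Retnlb, which encodes the goblet cell resistin-like molecule RELM-beta, was the only one of the 20 further goblet cell markers called. Its raw counts were 23, 23, 43 and 11 in WT 1 to 4 and 1, 2, 3 and 2 in CD1d-KO 1 to 4, with no overlap. Summed and scaled by size factors, WT was 13.8 times CD1d-KO (exact 95% counting interval 6.76 to 32.9, adjusted p = 7.62e-06, DESeq2). It remained under the threshold in each of the 8 fits that left out 1 sample. Retnlb was thus scarce in both genotypes. Within WT it was highest in WT 3 and lowest in WT 4, as the 10 were, and the CD1d-KO counts were too few to show an order. The next gene of the list was Tmsb10, an actin-binding peptide (-0.23, adjusted p = 0.214, DESeq2).

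Other mucins and trefoil factors showed lower values in CD1d-KO for all 9 tested, of which 4 were called. Of all tested genes, 2.38% were called lower. Muc1, Muc5ac, Muc6, Tff1 and Tff2 were each highest in WT 3, which also had the highest sum of gastric markers. Muc3, Muc4, Muc13 and Muc20 were not highest there. The 9 are thus not separate pieces of evidence. Muc13 had 56613, 54262, 53202 and 48732 normalized counts in WT 1 to 4 and 38926, 40724, 40447.5 and 41463 in CD1d-KO 1 to 4. Each CD1d-KO sample lay below each WT sample (log2 fold change -0.40 ± 0.0592, adjusted p = 8.44e-09, DESeq2). Muc1, a membrane mucin, had raw counts of 54, 29, 130 and 45 in WT and 3, 6, 3 and 15 in CD1d-KO, a summed ratio of 10.6 (exact 95% counting interval 7.11 to 16.4, adjusted p = 2.42e-07, DESeq2). Both calls held in each of the 8 fits without 1 sample.

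The gastric type gel mucins Muc5ac and Muc6 were called less firmly. Muc5ac had raw counts of 11, 86, 2424 and 687 in WT and 0, 0, 0 and 20 in CD1d-KO (adjusted p = 0.0431, DESeq2). It is the secreted mucin of the stomach surface, and its call was lost when any of the 4 WT samples or CD1d-KO 1, 2 or 3 was left out (adjusted p from 0.0521 to 0.295). Muc6, the mucin of gastric and Brunner's glands, had 245, 215, 142 and 231 raw counts in CD1d-KO and 493, 393, 1345 and 287 in WT (adjusted p = 0.0137, DESeq2), and missed the threshold without CD1d-KO 2 (0.076) or CD1d-KO 3 (0.0586). Muc3 and Muc20 were not called (-0.07 and -0.30), nor was Muc4 (-0.30, adjusted p = 0.06, DESeq2). The trefoil factors Tff1 (-4.95, adjusted p = 0.0826) and Tff2 (-4.35, adjusted p = 0.103, both DESeq2) were not called either.

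Relatives of the 10 genes by sequence varied in how far they followed the sample pattern. For the 13 with a mean of at least 100 normalized counts, r with the member score within genotypes ran from -0.71 for Clca3b to 0.88 for Creb3l4, a relative of Creb3l1, with a median of 0.32. Of the 18 present, 16 were tested, and the 2 called were again Muc5ac and Muc6. Clca3b had a mean of 72040 normalized counts, and Clca4b, at 11630, had an r of -0.65. Agr3 was at 187.8 and Ern1, the ubiquitous relative of Ern2, at 1751 (r -0.17 and -0.07). The exons of the 10 genes did not overlap those of any other gene in the annotation.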

How the data were processed

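Polyadenylated RNA of sorted IECs from 4 WT and 4 CD1d-KO mice was sequenced. Per the file headers, the authors counted read pairs per gene with featureCounts 1.6.4 (primary alignments, exons joined by gene, strand not used) against an mm10 RefSeq annotation. The labels name GRCm39 and HISAT2. Coordinates are those of the deposited mm10 table. The deposited values are raw counts, and the exon lengths come from the same table.

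Counts were fitted with DESeq2 1.42.0 in R 4.3.3, with genotype as the only term and all 8 samples, as in the study's methods. P-values were adjusted by Benjamini-Hochberg over 15446 genes (mean normalized count above 2.41) and called under 0.05. Intervals are 95% Wald intervals. The 2 experiments in which mice were processed are not assigned per sample in the sources used here, so that no batch term could be fitted. Replicates differed beyond counting noise (chi-square per degree of freedom 11.3 to 45.7), so none was a copy. The fits were tested on simulated data. Counting intervals cover counting error only.

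The 10 genes and all lists were chosen with earlier results of these data known. Named are the 10, Cd1d1, Xist and Ddx3y, Atoh1, Spdef and relatives of the 10, called genes and the 2 most extreme of each list, and the 5 genes most correlated with the member score on each measure. Xist was not called (adjusted p = 0.849, DESeq2), but its CD1d-KO values were split. It was at 67.9 and 50.5 normalized counts in CD1d-KO 1 and CD1d-KO 2, the samples with Y-linked counts. In CD1d-KO 3 and CD1d-KO 4 it was at 21984.7 and 35403, and in WT at 27535.8 to 31435.7. Epithelial, enterocyte, tuft, enteroendocrine, stem, stromal and blood lists had no called gene, and the Brunner's gland list had 1 of 4 (Muc6). Alternatives were edgeR 4.0.16, other scalings and filters, a replicate block, subsets and a covariate.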

Additional observations from a re-analysis of the deposited data

Results flagged for a closer look

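Rep15 in WT 3, at 699 normalized counts, lay far from the other 3 WT mice. Its gap to the nearest of them was 0.839 of the group's range, above Dixon's 95% critical value for 4 samples. Among 20 groups tested (10 genes in 2 genotypes) it was the only one past that value, and chance alone flags about 1 in 20.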

How the results depend on the processing

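None of the 10 goblet cell genes was called under any of the 16 alternatives (lowest adjusted p between 0.222 without WT 4 and 0.792 with the gastric covariate). The number of all genes called, 622, fell to 228 with edgeR, to 372 in samples without Y-linked counts and to 88 with the gastric covariate, and lay between 323 (without CD1d-KO 2) and 646 when 1 sample was left out, with 406 without WT 1 and 385 without WT 2. The number of other goblet related genes called, 7, fell to 4 in samples without Y-linked counts and to 2 with the gastric covariate, and lay between 4 (without CD1d-KO 1 or WT 1) and 9 when 1 sample was left out. With the gastric covariate Muc13 (adjusted p = 0.0718), Muc1 (0.782) and Retnlb (0.417) were not called (DESeq2). The log2 fold change of Muc5ac turned to 0.65, but Muc5ac is itself one of the genes in the gastric score. Its difference was thus removed by construction, and this value says nothing about Muc5ac. That score was lower in each CD1d-KO sample than in each WT sample, so that its part and that of the genotype cannot be told apart.

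Directions of the 10 genes were less stable than their calls. In samples without Y-linked counts the log2 fold change turned to 0.060 for Fcgbp, 0.14 for Tff3, 0.16 for Agr2 and 0.0019 for Creb3l1. With the gastric covariate it turned to 0.50 for Fcgbp, 0.20 for Clca1, 0.41 for Tff3, 0.054 for Spink4, 0.25 for Agr2, 0.11 for Ern2, 0.0017 for Creb3l1 and 0.32 for Rep15. Leaving out 1 sample gave -0.26 to 0.0012 for Muc2, -0.22 to 0.074 for Fcgbp, -0.20 to 0.11 for Tff3, -0.20 to 0.12 for Agr2 and -0.16 to 0.074 for Creb3l1, with positive values without CD1d-KO 2 and, except for Muc2, without WT 3. The cause was not tested. Other scalings and filters turned none of the 10.

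Replicate numbers are shared between genotypes in the labels, but same-numbered samples correlated at 0.307, 0.019, 0.227 and 0.021, and not every sample correlated best with its own number, so the numbers were not taken as pairs. With the replicate block 569 genes and none of the 10 were called. Without division by exon length, 9 of the 10 genes changed rank by level. With 4 mice per genotype the 95% intervals of the 10 genes span folds from 0.577 to 1.9, and differences inside a gene's interval were not detectable.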
